A study of Mus musculus with 24 samples.

Results

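The genes described here encode potassium, calcium and sodium channels and their partner subunits, and were taken from the count table by gene symbol: every row that began with Kcn or Cacn, or with Scn and a digit, other than Kcnj11. This rule gave 118 of 17696 listed genes. By the known role of their proteins, 10 were pore-forming calcium channel subunits, 13 were calcium channel accessory subunits, 10 were pore-forming sodium channel subunits, 4 were sodium channel β subunits and 35 were voltage-gated potassium channel subunits. Another 14 were potassium channel accessory proteins, 8 were potassium channels opened by calcium or sodium, 11 were inward rectifiers and 11 were two-pore leak channels. The remaining 2 were noncoding transcripts, Kcnq1ot1 and Kcnmb4os2. The inward rectifiers, the leak channels, the accessory proteins and the noncoding transcripts share the symbols but are not themselves voltage-gated pores.

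Expression was measured by mRNA sequencing in MIN6 cells, an insulinoma line from mouse that keeps many β cell features. The cells had been transduced with lentiviral vectors and selected with puromycin. The Scr line carried a scrambled sequence and was the control, the ZIP line carried a vector to inhibit miR-146a-5p, and the OE line carried a vector to overexpress it. By the study's methods, the Scr and ZIP vectors were of the same make with copGFP as reporter. The OE vector was of another make, with Turbo RFP. A difference between OE and the other lines thus cannot be told apart from a difference between vectors. Each line was cultured without cytokines (Scr, ZIP and OE) or for 24 h with 3 cytokines, TNFα at 10 ng/ml, IL-1β at 5 ng/ml and IFNγ at 100 ng/ml (Scr+Cy, ZIP+Cy and OE+Cy), with 4 libraries in each of the 6 groups. The lines were expanded from single picked clones, so a difference between lines cannot be told apart from a difference between clones, and nothing in the labels says that the 4 libraries of a group came from separate cultures, so that p values measure the spread between these libraries, which may be technical. The level of the microRNA itself was not analysed here.

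Electrical activity couples glucose metabolism to insulin release in β cells. When ATP-sensitive potassium channels close, the membrane depolarizes, voltage-gated sodium and calcium channels open, and calcium entry triggers exocytosis, while delayed rectifier and calcium-activated potassium channels repolarize the cell. Two-pore channels carry a background potassium current, inward rectifiers of the Kcnj family hold or lower the resting potential, and accessory subunits set the surface level and gating of the pores.

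Because both vectors were aimed at miR-146a-5p, sites for this microRNA were searched in the 3′ untranslated regions of GENCODE release M21 (mouse build GRCm38, also called mm10). The mature microRNA, from RefSeq, lies on the minus strand of GRCm38.p6 at chr11:43374435-43374456. Bases 2 to 8, its seed, are in capitals:
mmu-miR-146a-5p: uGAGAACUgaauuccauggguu
The matching site is AGTTCTC. It was present in 20 of the 116 members with an annotated 3′ untranslated region (17.2%), and in 13.1% of the 15462 listed genes with one. The median length of the region was 1976 bases among members and 1283 bases among all these genes. The sites of 6 of the 20 members with a site, all of which differed between the lines, follow as examples. Other members with a site differed as well, and the directions over all 20 are given further below. Each site is in capitals, with 14 bases before and 1 base after it. In the order shown, they lie at chr15:72505046-72505067 (minus strand), at chr12:98434496-98434517, chr12:98431086-98431107 and chr12:98429913-98429934 (all minus), at chr15:65987823-65987844 and chr15:65987179-65987200 (both minus), chr2:127456787-127456808 (minus), chr6:21728751-21728772 (plus) and chr2:62697986-62698007 (minus).
Kcnk9 site: gaccaacggtagtgAGTTCTCt
Kcnk10 site 1: agtggcaacgctatAGTTCTCa
Kcnk10 site 2: ttttccaattgtacAGTTCTCt
Kcnk10 site 3: gttctttgtccttaAGTTCTCt
Kcnq3 site 1: catgagagtgatgcAGTTCTCt
Kcnq3 site 2: ctttaaaaaaaaaaAGTTCTCt
Kcnip3 site: atctacagaccaccAGTTCTCc
Kcnd2 site: atcacaaggcacaaAGTTCTCt
Kcnh7 site: atgttaagcacctgAGTTCTCc
A matching site is a property of the letters and was not tested as a binding site. The levels of these genes in the OE line are given with those of each class. The mean in OE was above that in Scr for all of them but Kcnh7.

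Before the results, 1 set of libraries has to be described. The summed level of 5 Schwann cell markers (among them Mbp, Prx and Pmp22) was 121 CPM (read counts relative to the library total, after TMM scaling) in replicate 1 of Scr and 78.5 to 93.2 CPM in the other Scr libraries. In replicate 1 of ZIP it was 177 CPM, against 61.7 to 67.2 CPM in the others, and in replicate 1 of Scr+Cy it was 274 CPM, against 85.9 to 87.1 CPM. Replicate 1 of OE stood less far apart, at 105 CPM against 91.5 to 94.7 CPM. The same libraries of Scr, ZIP and Scr+Cy held 13.5, 42.4 and 46.6 summed CPM of 4 fibroblast markers. Among the members, 8 genes had in some group 1 library at 1 CPM or more and at least 5 times the level of every other library of the group, and all 17 such cases were in replicate 1. Kcna1, a voltage-gated potassium subunit of myelinated axons, measured 11.7, 1.49, 0 and 0 CPM in the 4 Scr libraries and 37.01, 1.07, 0 and 0 CPM in Scr+Cy. Scn7a, a sodium channel relative found in glia, measured 12.9, 0.977, 0 and 0 CPM in Scr and 28.9, 0.895, 0 and 0 CPM in Scr+Cy. Outside replicate 1, both genes were at or below 1.49 CPM in every library. Kcna6, Kcng2, Kcnj10, Scn10a, Scn4b and, in Scr+Cy, Kcna2 behaved likewise, and none of these genes is used to describe a line unless the value without replicate 1 is given. They remain in the counts of called members, and for each comparison of 2 groups the count without the replicate 1 libraries is given as well. All 10 β cell markers were listed, and 9 or 10 of them reached 1 CPM in each group. Their summed level was 18756 to 25050 CPM in Scr, 28374 to 30905 CPM in ZIP and 40112 to 43788 CPM in OE, and 19595 to 21528, 25617 to 28568 and 25357 to 33004 CPM with cytokines. Single markers of this list went both ways. Mean Ins1, Ins2, Iapp and Ucn3 were higher in OE than in Scr, while mean Pdx1, Mafa and Nkx6-1 were lower. Ins1 averaged 674 CPM in Scr and 7673 CPM in OE. Pdx1 averaged 824 and 627 CPM, Mafa 1050 and 716 CPM and Nkx6-1 254 and 167 CPM in the same order. The summed level of 5 neuron markers, of which 4 reached 1 CPM in each group, was 779 to 849 CPM in Scr, 988 to 1021 CPM in ZIP and 547 to 605 CPM in OE, and 645 to 722, 739 to 845 and 407 to 467 CPM with cytokines. These levels moved with the lines, and their part in the results was not tested. In bulk RNA, fewer cells expressing a gene and less RNA of it per cell cannot be told apart. Depth was 26657792 to 37168232 assigned reads per library.

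**Figure D1:**
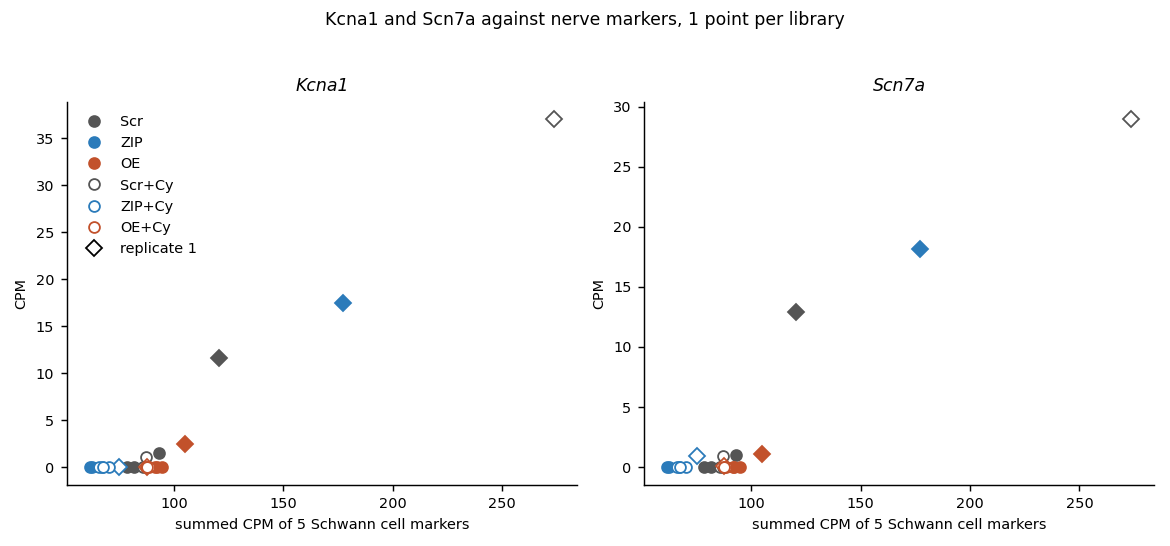
CPM of Kcna1 (left) and Scn7a (right) in each of the 24 libraries against the summed CPM of 5 Schwann cell markers in the same library. Colours mark the lines, open symbols cytokine treatment and diamonds replicate 1, and the 3 libraries far to the right are replicate 1 of Scr, ZIP and Scr+Cy, with summed markers of 121, 177 and 274 CPM.

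Of the 118 members, 68 had a mean of at least 1 CPM over all 24 libraries, and 46 of these reached it in every group. Just above this limit were Cacna2d2 and Kcna4 at 1.10 CPM each and Cacng5 at 1.32 CPM, and just below it were Cacna1i at 0.976 CPM, Kcnn3 at 0.836 CPM and Kcnrg at 0.834 CPM. Of the 50 members under the limit, 8 reached 1 CPM in at least 1 group and 42 stayed under it in every group. The members under it included Scn4a, known from skeletal muscle, 9 of the 11 inward rectifiers, and Kcnn4 and Kcne2, which were at or near the detection limit of 3 reads in most libraries. All 118 were tested, and counts over members that passed only through 1 group are not read as support for a direction. Kcnj5, an inward rectifier gene among 30 channel genes listed for their known place in β cell excitability, was not analysed here.

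Levels of different genes can be compared only per length, so CPM was divided by the exon length of each gene in kilobases. In Scr cells the highest level per length was that of Cacng7, a γ subunit also known as a partner of glutamate receptors, at 35.2 ± 3.70 CPM per kb (SD, n = 4). Kcnh6, a channel of the ether-à-go-go-related type, followed at 17.4 ± 1.88 CPM per kb, and Kcnab2, a β subunit of Kcna channels, at 16.4 ± 1.08 CPM per kb. The latter pair did not differ by more than their SDs. Kcnk16, the most abundant leak channel of islets, was at 11.9 ± 2.60 CPM per kb. In ZIP cells Cacng7 was again first, at 40.3 ± 0.893 CPM per kb, and Kcnj12, a strong inward rectifier, was second at 30.2 ± 6.42 CPM per kb. In OE cells the first place was taken by the leak channel Kcnk1 at 36.8 ± 2.73 CPM per kb, with Kcnk16 at 28.4 ± 3.94 and Kcnk9 at 22.99 ± 2.70 CPM per kb among the next 4, and Cacng7 was at 14.7 ± 1.07 CPM per kb.

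The summed level per length of each class set the lines apart most in the leak channels and the inward rectifiers. The 11 two-pore channels together measured 21.9 ± 4.09 CPM per kb in Scr, 16.3 ± 1.77 in ZIP and 91.2 ± 8.77 in OE, and 37.9 ± 9.58 in OE+Cy. The 11 inward rectifiers measured 13.9 ± 1.37 CPM per kb in Scr, 33.5 ± 6.24 in ZIP and 5.05 ± 0.508 in OE. By the means of the untreated lines, OE thus held the highest sum of leak channel transcripts and the lowest of inward rectifier transcripts, and ZIP the reverse. In the inward rectifiers the libraries of the 3 lines did not overlap. In the leak channels all OE libraries lay above the others, but ZIP (15.1 to 18.9 CPM per kb) and Scr (18.7 to 27.7) overlapped. The highest of these Scr values was that of replicate 1. The sum of the 10 calcium channel pores differed by less than the SDs among the untreated lines, at 26.00 ± 1.67, 26.6 ± 1.29 and 25.5 ± 2.16 CPM per kb, while that of the 13 calcium accessory subunits was 71.1 ± 4.24 CPM per kb in Scr and 39.8 ± 1.16 in OE. These sums are descriptions of the listed genes, and no test was run on them.

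**Figure D2:**
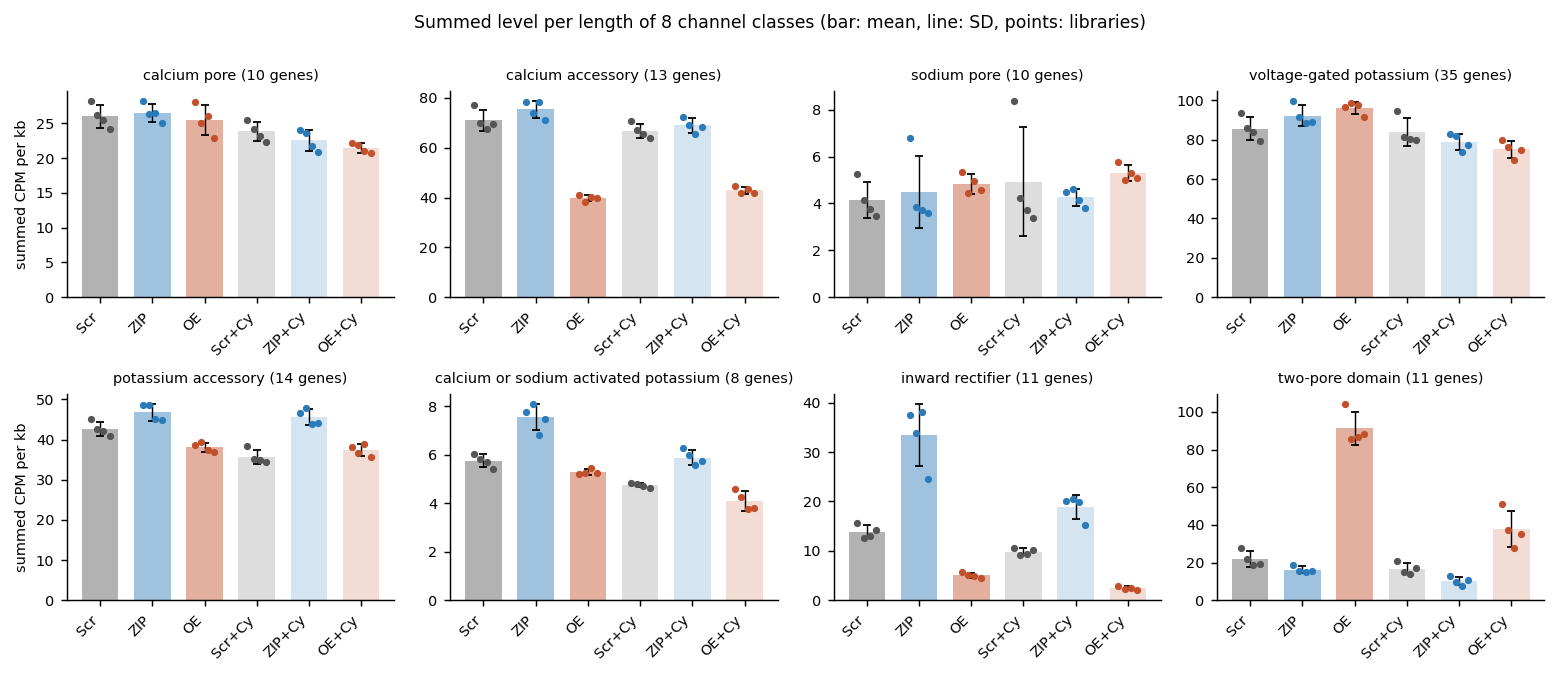
Summed level (CPM per kb of exon) of 8 classes of channel genes in the 6 groups, with bars for the mean of 4 libraries, lines for the SD and points for the libraries. The two-pore channels in OE (mean 91.2) and the inward rectifiers in ZIP (mean 33.5) stand above all other groups.

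Differences between lines were tested gene by gene with edgeR's quasi-likelihood test. A call required a change of 1.5-fold or more and an adjusted p value (Benjamini-Hochberg, over all 17696 genes) under 0.05. The first question was how channel genes differed in untreated cells when miR-146a-5p was targeted. In ZIP vs Scr, 33 of the 118 members were called, 15 higher and 18 lower, where 12.2% of all genes were called (6.29% higher and 5.89% lower). In OE vs Scr, 62 members were called, 21 higher and 41 lower, where 23.8% of all genes were called (10.4% higher and 13.4% lower). The members' share was thus 28.0% in ZIP vs Scr and 52.5% in OE vs Scr, each above the share of all genes. With all replicate 1 libraries left out, 33 members were called in ZIP vs Scr, 14 higher and 19 lower. Of these, 27 were also called with them. In OE vs Scr 59 were then called, 23 higher and 36 lower, of which 55 were also called with them. Libraries of the 2 groups did not overlap for 41 members in ZIP vs Scr (27.2% of all genes) and for 66 in OE vs Scr (46.5% of all genes). The median log2 fold change over all members was 0.02 in ZIP vs Scr and −0.14 in OE vs Scr, beside 0.00 for all genes tested in each. Of the 68 members at 1 CPM, 12 were called higher and 14 lower in ZIP vs Scr, with a median of 0.02, and 17 were called higher and 26 lower in OE vs Scr, with a median of −0.24, beside medians of −0.01 and 0.00 for all genes at 1 CPM. The shares called were 38.2% and 63.2%, beside 12.9% and 23.8% of all genes at 1 CPM. Of the 68, 22 were under 1 CPM in at least 1 group. Among these, Kcnk6 and Scn3a reached it only in OE and OE+Cy, and Scn1a only in Scr and Scr+Cy. Kcna1 and Scn7a reached it only in Scr, ZIP and Scr+Cy, the groups in which replicate 1 was high.

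In the lines treated with cytokines, 35 members were called in ZIP+Cy vs Scr+Cy, 11 higher and 24 lower (12.6% of all genes called, 5.89% higher and 6.7% lower). In OE+Cy vs Scr+Cy, 53 members were called, 17 higher and 36 lower (26.7% of all genes called, 12.7% higher and 14% lower). The medians over all members, −0.31 and −0.37, included many genes near 0 reads, and over the 68 members at 1 CPM they were −0.04 and −0.19, beside −0.01 and −0.02 for all genes at 1 CPM. With all replicate 1 libraries left out, 33 members were called in ZIP+Cy vs Scr+Cy, of which 30 were also called with them, and 47 in OE+Cy vs Scr+Cy, of which 44 were. The split then moved to 13 higher and 20 lower in the former and to 19 higher and 28 lower in the latter. Without overlap were 39 members in ZIP+Cy vs Scr+Cy (27.6% of all genes) and 55 in OE+Cy vs Scr+Cy (46.2%). The calls of Kcna1 in both comparisons and of Scn7a in OE+Cy vs Scr+Cy were among those lost. The fitted log2 fold changes of Kcna1 were −9.55 and −8.88 with replicate 1, and −6.45 and −4.56 (adjusted p = 0.170 and 0.143) without it, and those of Scn7a in OE+Cy vs Scr+Cy were −8.53 and −6.20 (adjusted p = 0.0925). Outside replicate 1, only Scr+Cy replicate 2 of the Scr+Cy libraries had reads of either gene, and a fitted value against libraries at or near 0 depends on the fit and gives no size.

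**Figure D3:**
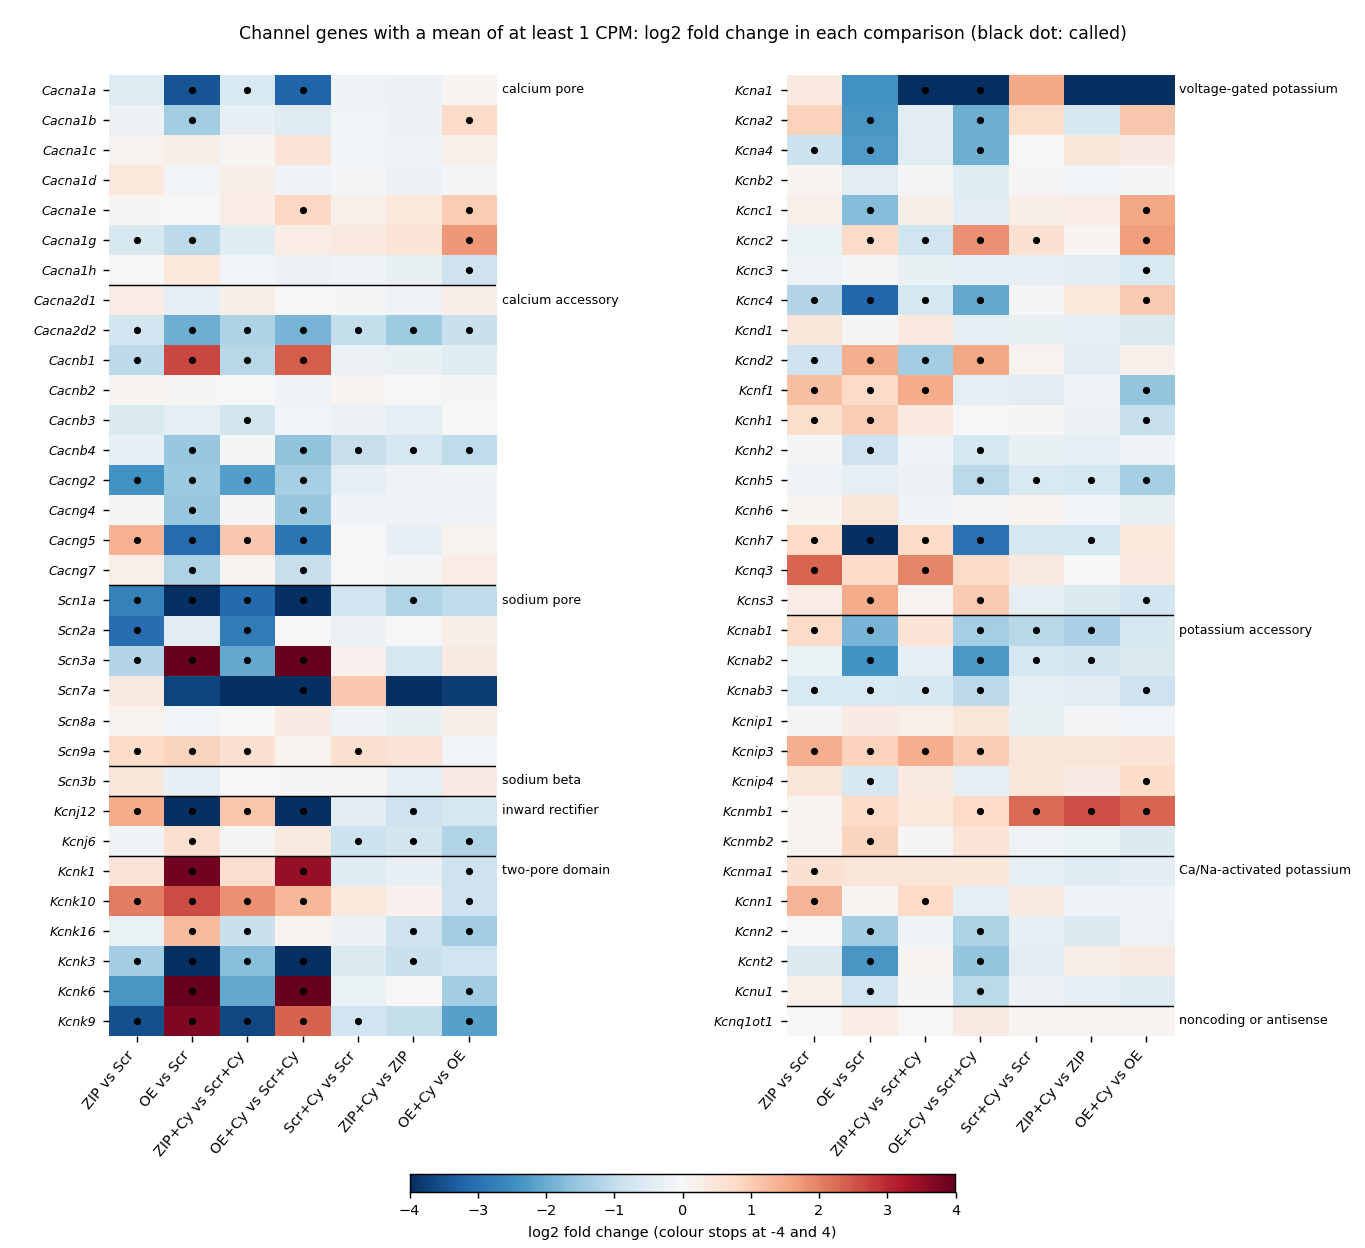
Log2 fold changes of 64 channel genes with a mean of at least 1 CPM (rows, by class) in 4 comparisons between lines and 3 cytokine comparisons (columns). Red is higher and blue lower in the first-named group, colour stops at 4 and −4, and black dots mark called genes, of which OE vs Scr holds 42 and Scr+Cy vs Scr 10. Kcna1 and Scn7a, which were high in replicate 1 of Scr, ZIP and Scr+Cy, are drawn with these libraries included.

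The two-pore leak channels held large differences between the lines, and the closely related Kcnk3 and Kcnk9 had different patterns. Kcnk9, an acid-sensitive leak channel (chr15:72501873-72548614, GRCm38.p6), measured 23.1, 24.6, 18.97 and 18.8 CPM in the 4 Scr libraries, 1.72, 1.42, 2.29 and 2.02 CPM in ZIP and 332, 263, 276 and 260.2 CPM in OE. The 3 lines did not overlap, with ZIP lowest and OE highest. It was 11.4-fold lower (log2 fold change −3.51 ± 0.28, adjusted p = 7.07e-10) in ZIP and 13.2-fold higher (log2 fold change 3.72 ± 0.22, adjusted p = 6.79e-13) in OE. Kcnk3, its closest relative and also acid-sensitive (chr5:30588170-30625270), was low in both lines: 25.4, 20.99, 20.7 and 20.1 CPM in Scr, 9.73, 8.06, 7.69 and 7.53 CPM in ZIP and 0.181, 0.517, 0.745 and 1.44 CPM in OE. It was 2.65-fold lower (log2 fold change −1.40 ± 0.23, adjusted p = 4.14e-05) in ZIP and 30.7-fold lower (log2 fold change −4.94 ± 0.30, adjusted p = 1.15e-12) in OE. The pair therefore moved together in ZIP and apart in OE, where Kcnk3 lay between 0.181 and 1.44 CPM. Kcnk3 shares 5.76% of its exon bases with an opposite-strand gene, Gm9899, and the use of strand in counting is not given in the sources used here.

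Kcnk1, a weakly conducting leak channel, measured 7.74, 6.90, 4.38 and 3.62 CPM in Scr, 6.70, 7.80, 6.79 and 11.3 CPM in ZIP and 90.8, 79.5, 76.7 and 82.3 CPM in OE. It was 14.4-fold higher (log2 fold change 3.85 ± 0.23, adjusted p = 6.77e-13) in OE, and it was not called in ZIP (0.51 ± 0.23, adjusted p = 0.108), although it was without Scr replicate 1 (0.71, adjusted p = 0.0369) and without all replicate 1 libraries (0.79, adjusted p = 0.0123). Kcnk6, of the same subfamily, stayed between 0 and 0.124 CPM in Scr and ZIP and measured 7.62, 9.82, 7.84 and 8.91 CPM in OE. The fitted difference was 136-fold (log2 fold change 7.09 ± 0.40, adjusted p = 3.43e-13). The Scr libraries were near the detection limit of 3 reads, so this value gives a direction and no exact size. Kcnk10, a stretch- and lipid-sensitive leak channel, differed the same way in both lines, with 0.836, 0.747, 0.875 and 1.33 CPM in Scr, 3.22, 3.57, 2.85 and 6.15 CPM in ZIP and 4.56, 6.07, 5.60 and 6.68 CPM in OE. It was 4.17-fold higher (log2 fold change 2.06 ± 0.22, adjusted p = 8.69e-08) in ZIP and 6.04-fold higher (log2 fold change 2.60 ± 0.22, adjusted p = 4.79e-10) in OE. Its 3′ untranslated region held 3 of the sites shown above, the most of any member. Kcnk16 was 2.39-fold higher (log2 fold change 1.26 ± 0.21, adjusted p = 2.33e-05) in OE and was not called in ZIP (−0.28 ± 0.22, adjusted p = 0.377). Of the 11 leak channels, 5 were called higher and 2 lower in OE vs Scr, and 1 higher and 2 lower in ZIP vs Scr.

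**Figure D4:**
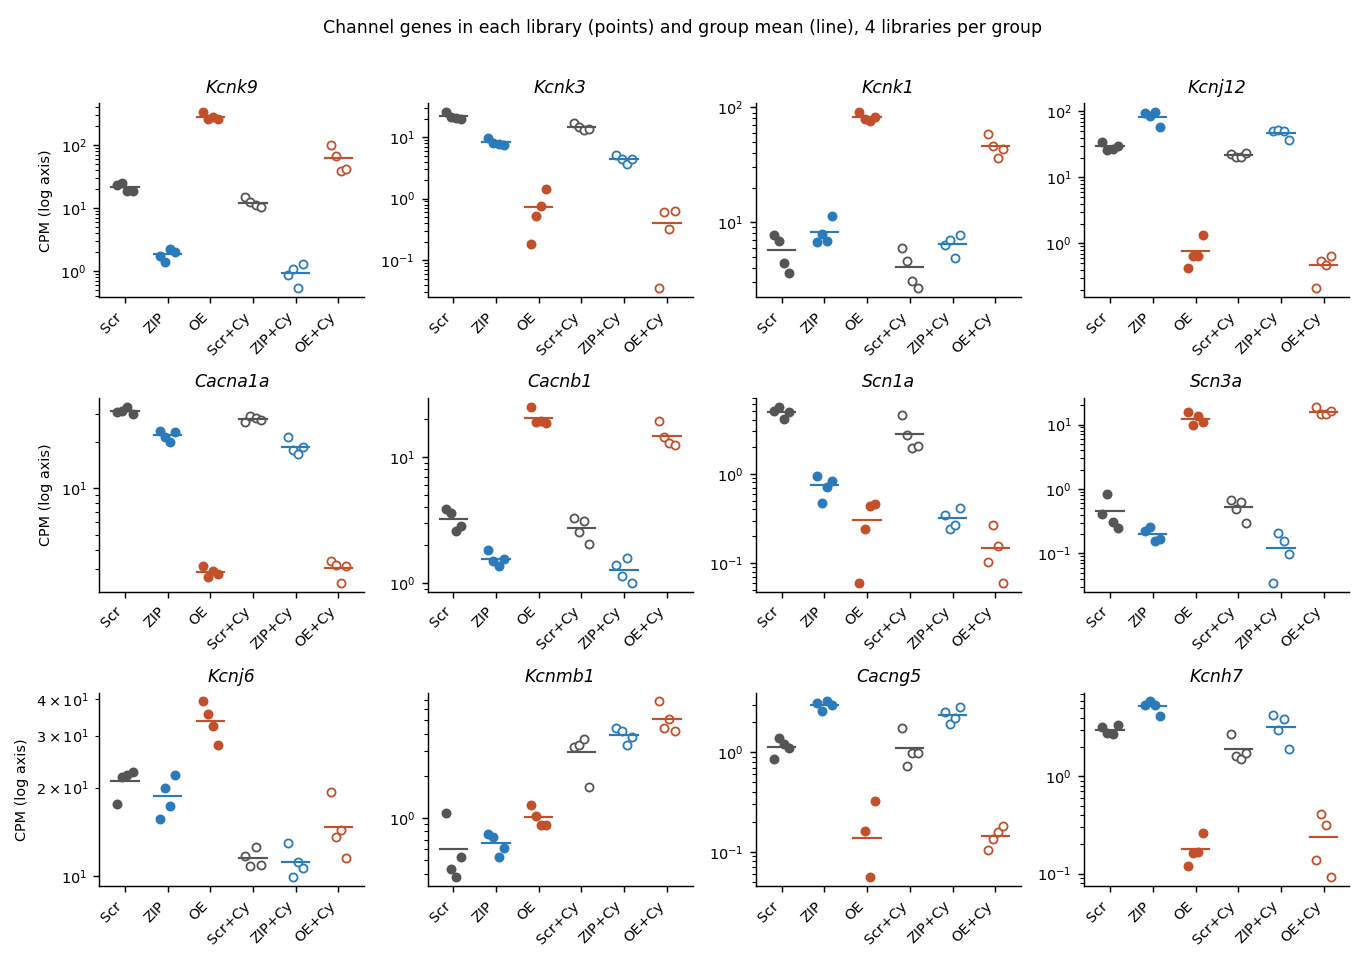
CPM (log axis) of 12 channel genes in each of the 4 libraries of the 6 groups, with a line at the group mean. Filled points are untreated and open points cytokine-treated, Kcnk9 spans from 1.86 CPM in ZIP to 283 CPM in OE on average, and Kcnmb1 is higher in every cytokine group than in the untreated group of the same line. A library at 0 CPM has no point, which applies to 1 OE library of Cacng5.

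Among the inward rectifiers, Kcnj12 (chr11:61022564-61073269) showed the opposite order from Kcnk9. It measured 34.8, 25.96, 27.2 and 30.1 CPM in Scr, 93.1, 84.2, 97.2 and 57.9 CPM in ZIP and 0.423, 0.653, 0.635 and 1.34 CPM in OE, without overlap. It was 2.82-fold higher (log2 fold change 1.49 ± 0.15, adjusted p = 4.39e-08) in ZIP and 39.2-fold lower (log2 fold change −5.29 ± 0.23, adjusted p = 2.23e-15) in OE. Kcnj3, a subunit of the potassium channels opened by G proteins, had the same order at a lower level, at 0.585 ± 0.190 CPM in Scr, 2.58 ± 0.621 in ZIP and 0.179 ± 0.0629 in OE (SD, n = 4). It was called in both (2.13 ± 0.36, adjusted p = 6.06e-05 in ZIP, and −1.70 ± 0.42, adjusted p = 0.00157 in OE). Its partner Kcnj6 went the other way in OE, where it was 1.60-fold higher (log2 fold change 0.68 ± 0.13, adjusted p = 1.05e-04), and without the replicate 1 libraries this difference, at 0.53, was below the fold limit. Kcnj6 was not called in ZIP (−0.17 ± 0.13, adjusted p = 0.386). In Scr, Kcnj12 made up 77.3% of the summed inward rectifier level per length, in ZIP 90.2%, and in OE Kcnj6 made up 87.4% of it.

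Of the sodium channel pores, 5 lie side by side on chromosome 2, from Scn3a at 65457118 to Scn7a at 66784910 (GRCm38.p6), and they did not move together. Scn3a, a pore expressed in islet cells, measured 0.405, 0.834, 0.313 and 0.248 CPM in Scr, 0.220, 0.255, 0.155 and 0.168 CPM in ZIP and 15.4, 9.82, 13.4 and 10.8 CPM in OE. It was 27.03-fold higher (log2 fold change 4.76 ± 0.26, adjusted p = 1.21e-13) in OE and 2.27-fold lower (log2 fold change −1.19 ± 0.41, adjusted p = 0.0305) in ZIP. The call in ZIP was lost without Scr replicate 2 (−0.71, adjusted p = 0.201) and without ZIP replicate 1, 3 or 4 (−1.24, −1.07 and −1.12). Scn2a, its neighbour, measured 4.15, 6.18, 5.19 and 3.69 CPM in Scr, 0.622, 0.547, 0.465 and 0.706 CPM in ZIP and 4.81, 3.32, 3.45 and 2.52 CPM in OE. The ZIP libraries lay below all others, with Scn2a 8.18-fold lower (log2 fold change −3.03 ± 0.30, adjusted p = 1.90e-08), while OE was not called (−0.45 ± 0.25, adjusted p = 0.139) unless all replicate 1 libraries were left out (−0.69, adjusted p = 0.0249). Scn1a, a pore known from inhibitory neurons, measured 5.04, 5.61, 4.06 and 4.96 CPM in Scr, 0.951, 0.474, 0.713 and 0.840 CPM in ZIP and 0.0604, 0.245, 0.441 and 0.458 CPM in OE. It was called lower in both lines, 6.57-fold lower in ZIP (adjusted p = 8.69e-07) and 16.2-fold lower in OE (adjusted p = 2.35e-09).

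Scn9a, the fourth gene of this cluster and a main sodium channel of mouse β cells, was higher in both lines. It measured 10.1, 14.8, 13.7 and 13.2 CPM in Scr, 24.4, 23.2, 19.6 and 18.9 CPM in ZIP and 25.5, 22.4, 24.5 and 22.8 CPM in OE, 1.67-fold higher in ZIP (adjusted p = 3.62e-05) and 1.84-fold higher in OE (adjusted p = 1.03e-06). The log2 fold change in ZIP, 0.74, fell below the fold limit at 0.57 when the replicate 1 libraries were left out. Scn8a, a pore located on another chromosome, differed little, with means of 26.8 ± 1.27 CPM in Scr, 29.6 ± 1.39 in ZIP and 24.9 ± 1.25 in OE. Summed per length, the 10 pores were at 4.15 ± 0.778 CPM per kb in Scr and 4.83 ± 0.420 in OE, which differed by less than the larger SD. In Scr this sum included Scn7a, which was high in replicate 1. The largest share of that total was held by Scn8a in Scr (41.1%) and by Scn9a in OE (38.6%).

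Among the calcium channel pores, the L-type channels that carry most β cell calcium current differed by less than 1.5-fold between the untreated lines. Cacna1c was at 118 ± 6.99 CPM in Scr, 129.7 ± 9.31 in ZIP and 139.9 ± 10.2 in OE, and Cacna1d at 44.96 ± 0.427, 60.6 ± 5.50 and 41.2 ± 3.86 CPM, so neither reached the fold limit of 1.5. In OE+Cy vs Scr+Cy, Cacna1c was not called (0.54 on the log2 scale, adjusted p = 8.44e-07). Without the replicate 1 libraries it was called higher there (0.65, adjusted p = 4.13e-07). Cacna1a, the pore of P/Q-type channels (chr8:84338631-84640251), measured 31.1, 31.3, 33.6 and 30.2 CPM in Scr, 23.5, 21.3, 19.96 and 22.9 CPM in ZIP and 3.11, 2.64, 2.92 and 2.78 CPM in OE. It was 11.00-fold lower (log2 fold change −3.46 ± 0.09, adjusted p = 3.79e-19) in OE. In ZIP it was 1.44-fold lower (adjusted p = 9.61e-06), just under the fold limit, and in ZIP+Cy vs Scr+Cy it was 1.51-fold lower and called, just over the limit. That call was lost without Scr+Cy replicate 2, ZIP+Cy replicate 2 or ZIP+Cy replicate 3 (−0.57, −0.56 and −0.55 on the log2 scale). Cacna1b, the N-type pore, was 2.63-fold lower (log2 fold change −1.40 ± 0.09, adjusted p = 2.80e-12) in OE, from a mean of 35.7 ± 2.71 to 13.5 ± 1.87 CPM. Of the T-type pores, Cacna1h was the most abundant calcium pore per length in each group and was not called in either line, whereas Cacna1g was called lower in both, at 1.70 ± 0.225 CPM in Scr, 1.09 ± 0.114 in ZIP and 0.826 ± 0.157 in OE. Its call in ZIP was lost without Scr replicate 3 (−0.55) or ZIP replicate 4 (−0.58). Cacna1i rose 2.31 on the log2 scale in OE (adjusted p = 1.83e-07), to 2.10 ± 0.562 CPM.

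Cacna1a lies in a stretch of chromosome 8 where other genes differed the same way. Of its 70 neighbours within 5 Mb on either side with at least 10 CPM, 100% had a lower mean in ZIP, and their median on the log2 scale was −0.61 beside −0.53 for Cacna1a itself. In OE, 95.7% of them had a lower mean, with a median of −0.57 beside −3.46 for Cacna1a. The value of Cacna1a in ZIP was therefore close to that of its neighbours, and its value in OE was far below it. Near Cacna2d2 on chromosome 9, by contrast, 100% of 84 neighbours had a higher mean in ZIP, with a median of 0.81, while Cacna2d2 itself was at −0.76 (adjusted p = 0.0201). The call of Cacna2d2 was lost without Scr replicate 1, Scr replicate 3 or ZIP replicate 1 (−0.65, −0.65 and −0.68) and without all replicate 1 libraries (−0.56, adjusted p = 0.0875). A cause of these shared directions was not tested.

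The calcium channel accessory subunits were called mostly lower in OE, 1 higher and 6 lower of 13. Cacnb1, a cytoplasmic β subunit, was the exception and measured 3.83, 3.56, 2.59 and 2.85 CPM in Scr, 1.83, 1.495, 1.36 and 1.55 CPM in ZIP and 25.1, 18.99, 19.3 and 18.6 CPM in OE. It was 6.35-fold higher (log2 fold change 2.67 ± 0.16, adjusted p = 1.42e-12) in OE and 2.07-fold lower (log2 fold change −1.05 ± 0.19, adjusted p = 1.38e-04) in ZIP. The β subunits Cacnb2 and Cacnb3 were not called in either untreated line, and Cacnb2 spanned 17.2 to 20.2 CPM in Scr and 18.1 to 19.9 CPM in OE. Among the γ subunits, which are also known as partners of AMPA receptors, Cacng7 measured 99.1, 85.3, 79.4 and 80.4 CPM in Scr and 38.2, 32.3, 36.1 and 37.4 CPM in OE (2.39-fold lower, adjusted p = 8.09e-14), and Cacng4 measured 51.5, 47.1, 52.2 and 61.9 CPM in Scr and 16.96, 18.6, 20.1 and 18.8 CPM in OE (2.86-fold lower, adjusted p = 6.38e-13). Neither was called in ZIP. Cacng5, next to Cacng4 on chromosome 11, went opposite ways in the 2 lines at a low level, with 0.863, 1.38, 1.22 and 1.11 CPM in Scr, 3.11, 2.63, 3.25 and 3.02 CPM in ZIP and 0, 0.163, 0.0552 and 0.327 CPM in OE. It was 2.62-fold higher in ZIP (adjusted p = 0.00208) and 8.38-fold lower in OE (adjusted p = 1.89e-06). The OE libraries held few reads of Cacng5, so the fitted fold in OE gives no exact size. Cacng2, known as stargazin, was lower in both, at 6.15 ± 1.88 CPM in Scr, 1.15 ± 0.252 in ZIP (5.34-fold lower, adjusted p = 1.70e-06) and 2.19 ± 0.794 in OE (2.83-fold lower, adjusted p = 1.42e-04). Cacna2d1, the main α2δ subunit, was at 137 ± 5.79 CPM in Scr and was not called in any comparison.

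Kcnb2, a delayed rectifier subunit, was among the members that differed little. It was at 48.9 ± 2.95 CPM in Scr, 51.6 ± 5.44 in ZIP and 36.8 ± 1.99 in OE, with no call in any of the 7 comparisons. Subunits that are silent alone and modify Kcnb channels did differ. Kcnf1 measured 14.8, 9.06, 13.6 and 15.9 CPM in Scr, 30.6, 30.5, 28.98 and 33.9 CPM in ZIP and 14.99, 29.2, 21.8 and 25.1 CPM in OE, and was called higher in both lines (2.32-fold higher and 1.71-fold higher, adjusted p = 2.74e-06 and 3.48e-04). Kcns3 was 2.79-fold higher in OE (adjusted p = 4.40e-07) and was not called in ZIP.

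Members of the Kcnq family, which is known for the muscarine-sensitive M current, differed in pattern. Kcnq3 measured 0.917, 0.834, 0.656 and 0.929 CPM in Scr and 4.98, 4.23, 3.84 and 3.76 CPM in ZIP (5.01-fold higher, adjusted p = 2.47e-04). All ZIP libraries lay above all Scr libraries. In OE, Kcnq3 averaged 1.42 CPM. Kcnq5 was above 1 CPM only in the Scr line, with 1.24, 1.41, 1.5002 and 1.39 CPM in Scr, 0.183, 0.0729, 0.0930 and 0.202 CPM in ZIP and 0, 0.136, 0.138 and 0.164 CPM in OE (9.83-fold lower and 12.2-fold lower, adjusted p = 2.78e-05 and 3.56e-06). The ZIP and OE libraries held few reads of Kcnq5, so these fitted folds give no exact size. Kcnq1, at 0.603 ± 0.131 CPM in Scr, was also called lower in both lines (−1.96 and −2.73 on the log2 scale, adjusted p = 0.00607 and 2.05e-04), while its antisense transcript Kcnq1ot1, which shares 2.96% of the exon bases of Kcnq1, was called in no comparison.

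The Kcnh family also split. Kcnh7 measured 3.18, 2.82, 2.72 and 3.34 CPM in Scr, 5.45, 5.91, 5.45 and 4.13 CPM in ZIP and 0.121, 0.163, 0.166 and 0.262 CPM in OE, 1.73-fold higher in ZIP (adjusted p = 0.0155) and 16.8-fold lower in OE (adjusted p = 2.91e-10). Kcnh1, a non-inactivating channel of the ether-à-go-go type, was higher in both lines without overlap, with 81.5, 92.3, 89.98 and 83.6 CPM in Scr, 134, 142, 127 and 161 CPM in ZIP and 175, 176, 178 and 166 CPM in OE (1.62-fold higher and 2.000-fold higher, adjusted p = 1.06e-06 and 1.07e-09). Kcnh2 was 1.77-fold lower in OE (adjusted p = 3.70e-08), and Kcnh6, the most abundant of the family per length, was not called. Of the fast delayed rectifiers and A-type channels, Kcnc4 measured 7.07, 7.01, 6.75 and 5.73 CPM in Scr, 4.21, 2.70, 2.48 and 2.32 CPM in ZIP and 1.39, 0.218, 0.883 and 0.524 CPM in OE, and was called lower in both (2.27-fold lower and 8.81-fold lower, adjusted p = 0.00174 and 7.71e-09). Kcnd2 went opposite ways, with 6.56, 6.67, 6.09 and 5.48 CPM in Scr, 3.62, 3.98, 3.47 and 3.06 CPM in ZIP and 13.3, 19.5, 17.96 and 17.8 CPM in OE (1.76-fold lower and 2.76-fold higher, adjusted p = 0.00251 and 2.38e-07). Kcnc1 was 3.36-fold lower in OE (adjusted p = 1.31e-04). In all, 5 of the 35 voltage-gated potassium genes were called higher and 13 lower in OE vs Scr, and 4 higher and 6 lower in ZIP vs Scr. The 13 include Kcng2 (−3.60 on the log2 scale), which was at −0.046 and not called without the replicate 1 libraries.

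Of the potassium channel accessory proteins, Kcnab2 had the highest level per length in Scr and measured 92.8, 96.97, 93.4 and 82.97 CPM in Scr, 82.8, 75.6, 70.1 and 73.6 CPM in ZIP and 17.5, 16.3, 17.2 and 18.3 CPM in OE. It was 5.29-fold lower (log2 fold change −2.40 ± 0.08, adjusted p = 4.32e-17) in OE, and was not called in ZIP (−0.28 ± 0.08, adjusted p = 0.00800). Kcnip3, a calcium-binding partner of Kcnd channels also known as the transcriptional repressor DREAM, was higher in both lines, with 16.9, 16.3, 15.2 and 12.8 CPM in Scr, 44.97, 43.8, 40.4 and 36.9 CPM in ZIP and 32.9, 31.3, 27.9 and 23.5 CPM in OE. It was 2.71-fold higher (log2 fold change 1.44 ± 0.10, adjusted p = 4.48e-11) in ZIP and 1.89-fold higher (log2 fold change 0.92 ± 0.10, adjusted p = 2.56e-08) in OE. Kcnip1, another partner of Kcnd channels, was at 64.2 ± 5.31 CPM in Scr and was not called in any comparison. Among the channels opened by calcium or sodium, Kcnma1, the large-conductance channel, measured 42.9, 45.7, 44.1 and 42.1 CPM in Scr, 70.3, 74.6, 57.2 and 66.4 CPM in ZIP and 60.9, 61.5, 61.97 and 62.7 CPM in OE. Both lines lay above all Scr libraries, but only ZIP passed the fold limit (1.53-fold higher, adjusted p = 3.85e-06, against 1.41-fold higher, adjusted p = 2.66e-05), and without ZIP replicate 2 ZIP did not pass it either (0.56 on the log2 scale). Kcnn1, a small-conductance channel, was 2.58-fold higher in ZIP (adjusted p = 5.83e-07), and Kcnt2, opened by sodium, was 4.995-fold lower in OE (adjusted p = 1.18e-11). Kcnn3 was called higher in OE (1.98 on the log2 scale, adjusted p = 7.42e-05), from 0.432 ± 0.187 to 1.73 ± 0.271 CPM, and Kcnmb4, a β subunit of Kcnma1, was called lower in ZIP and OE (−1.90 and −1.47, adjusted p = 2.80e-04 and 0.00117). Of the exon bases of Kcnmb4, 20.8% are shared with the opposite-strand transcript Kcnmb4os2.

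Members with and without a site for miR-146a-5p were set side by side. Of the 20 members with a site, 6 were called higher and 4 lower in OE vs Scr (median 0.26 on the log2 scale), and of the 96 without, 15 were called higher and 36 lower, with a median of −0.36. Among all listed genes in this comparison, 9.70% of the 2031 with a site were called higher and 14.4% lower (median −0.02), and of the 13431 without, 10.2% were called higher and 13.99% lower (median 0.00). In ZIP vs Scr, 7 members with a site were called higher and 2 lower (median 0.07), and 8 without a site were called higher and 16 lower (median 0.02). Among all listed genes, 7.43% with a site were called higher and 7.14% lower, and 6.10% without a site were called higher and 6.03% lower. Of the genes whose sites are printed above, Kcnk9, Kcnk10, Kcnip3 and Kcnd2 were called higher in OE, Kcnh7 was called lower, and Kcnq3 was not called (0.75 ± 0.46, adjusted p = 0.183) unless all replicate 1 libraries were left out (1.03, adjusted p = 0.0231). These are counts over genes chosen as a family, and no test was run on the site.

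The next question was how the channel genes of each line responded to cytokines. In Scr+Cy vs Scr, 13 members were called, 4 higher and 9 lower, where 7.57% of all genes were called, 5.96% higher and 1.61% lower. In ZIP+Cy vs ZIP, 14 members were called, 2 higher and 12 lower (9.7% of all genes called, 6.12% higher and 3.58% lower). In OE+Cy vs OE, 33 members were called, 13 higher and 20 lower (19.2% of all genes called, 11.8% higher and 7.37% lower). Libraries of the treated and untreated groups did not overlap for 24 members in Scr (21.2% of all genes), 27 in ZIP (26.2%) and 43 in OE (40.2%). In each line more members were called lower than higher, while among all genes more were called higher than lower. The medians over the 68 members at 1 CPM were −0.16, −0.25 and −0.13, beside −0.01 for all genes at 1 CPM in each of the 3 comparisons. Without the replicate 1 libraries, 4 higher and 11 lower, 3 higher and 14 lower, and 14 higher and 22 lower were called.

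Kcnmb1, a β subunit that raises the calcium sensitivity of Kcnma1 channels, was called higher with cytokines in all 3 lines. It measured 1.08, 0.431, 0.375 and 0.526 CPM in Scr and 3.20, 3.31, 3.64 and 1.65 CPM in Scr+Cy (4.80-fold higher, log2 fold change 2.26 ± 0.28, adjusted p = 9.80e-07). In ZIP+Cy it was 5.94-fold higher and in OE+Cy 5.04-fold higher than in the untreated line (adjusted p = 1.21e-07 and 8.92e-08), without overlap in any line. The pore that Kcnmb1 partners, Kcnma1, had lower values with cytokines in each line (−0.36, −0.50 and −0.41 on the log2 scale, adjusted p = 0.00365, 8.17e-05 and 3.28e-04), below the fold limit.

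Members that were called lower with cytokines in all 3 lines were Kcnj6, Kcnh5, Cacnb4 and Cacna2d2. Kcnj6 measured 17.7, 21.8, 22.1 and 22.6 CPM in Scr and 11.7, 10.8, 12.6 and 10.9 CPM in Scr+Cy, 15.6, 19.9, 17.3 and 22.1 CPM in ZIP and 12.95, 9.92, 11.2 and 10.7 CPM in ZIP+Cy, and 39.2, 35.4, 32.2 and 27.9 CPM in OE and 19.4, 13.6, 14.3 and 11.6 CPM in OE+Cy. It fell without overlap in each line (1.83-fold lower, 1.67-fold lower and 2.29-fold lower, adjusted p = 3.45e-05, 2.14e-04 and 8.24e-08). Kcnh5, an ether-à-go-go type channel, was 1.53-fold lower, 1.63-fold lower and 2.50-fold lower (adjusted p = 0.00131, 2.50e-04 and 3.08e-08). Cacnb4 and Cacna2d2, at means of 2.85 ± 0.439 and 2.42 ± 0.652 CPM in Scr, were 1.88-fold lower and 1.95-fold lower in the Scr line. In the OE line, the call of Cacna2d2 (−0.89) was lost without OE replicate 4 (−0.74). In Scr, Kcnh5 fell below the fold limit when Scr replicate 2 (−0.57 on the log2 scale), Scr+Cy replicate 2 (−0.58) or Scr+Cy replicate 3 (−0.58) was left out. In the ZIP line, Cacnb4 was no longer called without ZIP replicate 1 (−0.52) or without replicate 2, 3 or 4 of ZIP+Cy (−0.66, −0.59 and −0.66). Of the exon bases of Cacnb4, 16.0% are shared with the opposite-strand gene A430018G15Rik. Kcnab2 was called lower in Scr+Cy and ZIP+Cy (1.61-fold lower and 1.65-fold lower, adjusted p = 3.04e-07 and 1.21e-07), and in OE+Cy it was 1.49-fold lower (adjusted p = 6.41e-06), at the edge of the fold limit, which it passed without OE replicate 2, OE+Cy replicate 3 or OE+Cy replicate 4 (−0.60, −0.59 and −0.63). Kcnab1, a relative of Kcnab2, was also called lower in the Scr and ZIP lines (2.15-fold lower and 2.45-fold lower). The calcium pores, Kcnb2 and Kcnh6 were called in neither the Scr nor the ZIP line.

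Promoter sequences from RefSeq (GRCm38.p6, 250 bases before to 50 after the start) were searched for 3 motifs known from cytokine signalling, because the factors known to bind them act downstream of the 3 cytokines. The STAT motif TTCNNNGAA, which reads the same on both strands, was present in 12 of the 86 members with a promoter entry and in 8.30% of 32851 promoter entries. The interferon motif, GAAA, any 2 bases and GAAA again, searched on both strands, was present in 4 members and in 3.44% of entries, and the κB motif, GGG, any 2 bases and TTTCC, also on both strands, was present in 0 members and in 1.63% of entries. A gene can have several entries, and a member was counted if any of its entries held the motif. The background is a share of entries, so it cannot be compared directly with the members' count. Windows around 5 motifs of members that were called in Scr+Cy vs Scr follow with the motif in capitals, at chr16:94997664-94997690 (minus strand), chr2:66635052-66635078 (minus), chr3:64949015-64949041 (plus), chr3:64949173-64949200 (plus) and chr10:112270873-112270900 (plus).
Kcnj6 STAT motif: cgagtagcaTTCGTTGAAtctgcggct
Scn9a STAT motif: taaagtggcTTCTCGGAAacattagca
Kcnab1 STAT motif: atttccataTTCCAAGAAgtgacaggt
Kcnab1 interferon motif: agggagacaGAAACAGAAAtcaattcaa
Kcnc2 interferon motif: cagtaatgtGAAAAGGAAAttggatgag
With cytokines, Kcnj6 and Kcnab1 fell in the Scr line and Scn9a and Kcnc2 rose there (1.54-fold higher, adjusted p = 4.22e-04, and 1.53-fold higher, adjusted p = 0.0292). The motifs shown were thus found beside changes in both directions. Without the replicate 1 libraries, the last 2 were no longer called, at 0.56 (adjusted p = 0.00177) for Scn9a and 0.58 (adjusted p = 0.0909) for Kcnc2. Scn9a was also below the fold limit without Scr replicate 1 alone (0.52) or Scr+Cy replicate 2 alone (0.53), and Kcnc2 lost its call without Scr replicate 1, Scr replicate 2 or Scr+Cy replicate 4 alone (0.59, 0.49 and 0.42). No statement about binding follows from these letters.

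Whether a line responded to cytokines differently from the Scr line was tested as an interaction, called at an adjusted p value under 0.05 without a fold limit. For ZIP, 0 of the 118 members were called by edgeR, beside 0.0565% of all genes (0.0509% higher and 0.00565% lower). At an unadjusted p value under 0.05 there were 13, DESeq2 called 1, and the model with the replicate number as a block called 2. For OE, 21 members were called, 11 with a higher and 10 with a lower response than in Scr, where 20% of all genes were called (9.64% higher and 10.3% lower), a share close to that of the members. Of these 21, 19 were among the members at 1 CPM, and the other 2 were Cacna1i (−1.91 ± 0.39, adjusted p = 0.00110) and Kcng3 (1.78 ± 0.50, adjusted p = 0.0126), named because they complete the count.

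The leak channels that were high in OE fell there with cytokines. Kcnk9 measured 101, 67.5, 39.2 and 41.3 CPM in OE+Cy, 4.54-fold lower (log2 fold change −2.18 ± 0.20, adjusted p = 4.58e-09), against 14.8, 12.5, 11.3 and 10.3 CPM in Scr+Cy (1.75-fold lower, adjusted p = 0.0110). The response in OE differed from that in Scr by −1.38 ± 0.29, adjusted p = 0.00175. In ZIP+Cy, Kcnk9 measured 0.873, 1.11, 0.537 and 1.29 CPM and was not called (−0.96 ± 0.43, adjusted p = 0.109), whereas the model with the replicate number as a block called it (−0.98, adjusted p = 0.0499). Kcnk16 measured 81.3, 60.2, 64.8 and 64.1 CPM in OE and 35.8, 23.00, 17.5 and 27.3 CPM in OE+Cy, and Kcnk10 fell from 5.73 ± 0.893 to 3.21 ± 0.208 CPM. Their responses differed from those in Scr by −1.15 ± 0.30, adjusted p = 0.00855 and −1.26 ± 0.31, adjusted p = 0.00502. Kcnk1 and Kcnk6 fell in OE as well (1.79-fold lower and 2.61-fold lower, adjusted p = 9.96e-04 and 9.09e-05), without a called interaction (adjusted p = 0.488 and 0.421). Kcnk9 stayed 5.09-fold higher in OE+Cy than in Scr+Cy (adjusted p = 2.54e-09), while Kcnk16 was not called in that comparison (0.11 ± 0.22, adjusted p = 0.692).

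Several pores rose with cytokines in OE. Cacna1g, a T-type calcium pore, measured 1.03, 0.653, 0.773 and 0.851 CPM in OE and 1.88, 3.39, 2.56 and 3.13 CPM in OE+Cy (3.31-fold higher, log2 fold change 1.73 ± 0.20, adjusted p = 1.16e-07), and its response differed from that in Scr by 1.35 ± 0.27, adjusted p = 9.62e-04. Kcnc2, a fast delayed rectifier, measured 5.83, 4.92, 6.90 and 7.30 CPM in OE and 19.1, 19.8, 19.5 and 20.5 CPM in OE+Cy (3.17-fold higher, adjusted p = 6.65e-08, interaction 1.05 ± 0.26, adjusted p = 0.00620). Cacna1b rose from 11.7, 16.1, 13.4 and 12.97 to 20.5, 24.6, 24.7 and 22.4 CPM (1.70-fold higher, adjusted p = 1.82e-07), while in the Scr line it was at 35.7 ± 2.71 and 32.8 ± 2.08 CPM, so that the difference between OE and Scr was smaller with cytokines than without (interaction 0.89 ± 0.12, adjusted p = 2.94e-05). Kcnc1 was 2.92-fold higher in OE+Cy than in OE, with an interaction (1.29 ± 0.46, adjusted p = 0.0495) that was lost when any of 11 libraries was left out, with values from 1.02 to 1.41. Kcnip4, a further partner of Kcnd channels, was 1.58-fold lower in OE than in Scr (adjusted p = 7.27e-05) and 1.67-fold higher in OE+Cy than in OE (adjusted p = 2.39e-05). With cytokines it was also higher in Scr (0.45 on the log2 scale, adjusted p = 0.00804) and ZIP (0.32, adjusted p = 0.0422), below the fold limit. Its interaction was not called (0.29 ± 0.17, adjusted p = 0.256). Cacna1e, the R-type pore, was 2.02-fold higher in OE+Cy (adjusted p = 9.35e-04) without a called interaction.

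Other members were called lower with cytokines in OE and in neither of the other lines, and their response differed from that in Scr. Kcnf1 went from 14.99, 29.2, 21.8 and 25.1 CPM in OE to 6.18, 8.94, 7.26 and 8.29 CPM in OE+Cy (2.96-fold lower, adjusted p = 6.45e-08, interaction −1.16 ± 0.24, adjusted p = 0.00133). Kcnh1 went from 175, 176, 178 and 166 CPM to 106, 96.7, 82.7 and 83.3 CPM (1.89-fold lower, adjusted p = 8.46e-09, interaction −0.97 ± 0.12, adjusted p = 1.25e-05), and in OE+Cy vs Scr+Cy it was not called (0.03, adjusted p = 0.816). Cacna1h fell from 133 ± 20.8 to 74.6 ± 14.2 CPM (1.78-fold lower, interaction −0.67 ± 0.17, adjusted p = 0.00837). Scn9a, which rose in the Scr line, measured 25.4, 20.998, 22.01 and 20.02 CPM in OE+Cy and was not called in OE+Cy vs OE (−0.11 ± 0.12, adjusted p = 0.483), and this difference between the responses was called (−0.73 ± 0.17, adjusted p = 0.00275). Smaller differences in response, from −0.71 to 0.79 on the log2 scale, were called for Kcnh5, Kcnh6, Cacna1c, Cacng7, Scn3b, Scn8a and Kcnt2. Of these, Cacna1c lost its call when any of 10 libraries was left out (0.24 to 0.30), Scn3b when any of 10 was left out (0.20 to 0.29) and Kcnt2 without OE+Cy replicate 3 (0.62).

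**Figure D5:**
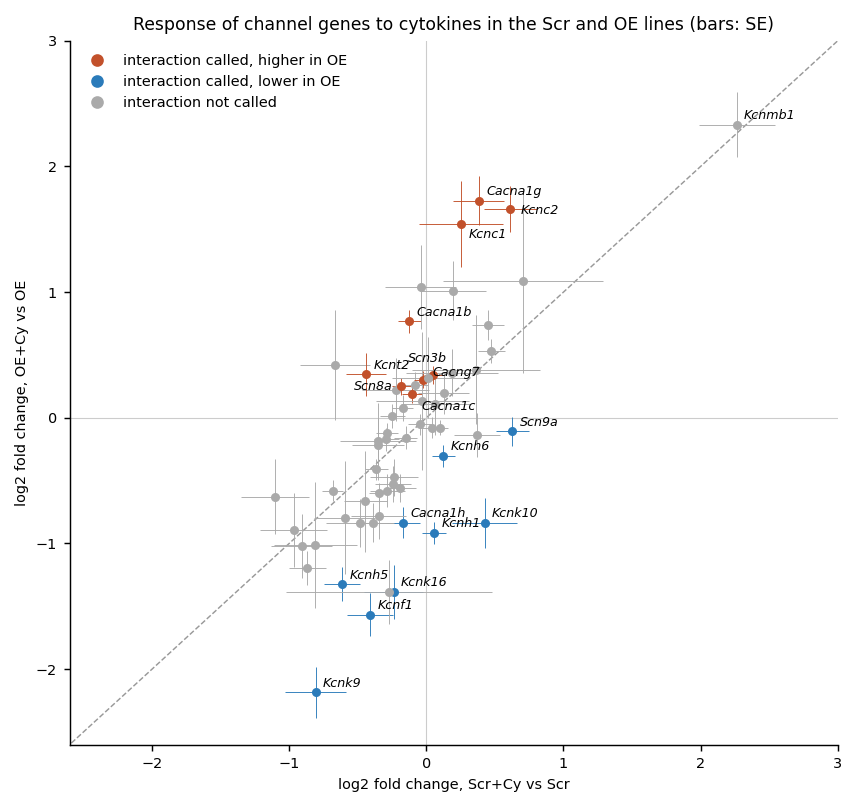
Log2 fold change with cytokines in the OE line (vertical axis) against that in the Scr line (horizontal axis) for 62 channel genes at 1 CPM, with SE bars and a dashed line of equal response. Kcna1 and Scn7a, which were high in replicate 1 libraries, are left out, Kcnmb1 rose in both lines, and Kcnk9, Kcnk10 and Kcnf1 lie furthest below the dashed line among the genes with a called interaction.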

How the data were processed

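RNA of 24 MIN6 libraries, 4 in each of 6 groups, was sequenced as mRNA. Per the labels and the study's methods, the authors aligned reads to mm10 with STAR in Partek and deposited estimated counts per gene, of which 30.3% were not whole numbers, and values normalized by DESeq2, whose signal equals the deposited counts divided by 1 factor per library. The submitters' processing notes name STAR 2.7.8a and Partek 11.0.24.0204. The strand setting is not given in the sources used here.

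Estimated counts were rounded. All 17696 listed genes of all 24 libraries entered 1 edgeR 4.0.16 quasi-likelihood model (R 4.3.3) with 6 group means, TMM scaling and no filter. Adjusted p values are Benjamini-Hochberg over all genes, and a call needs a fold of at least 1.5 and an adjusted p under 0.05 (no fold limit for interactions). SE is the log2 fold change divided by the square root of F. The fit was tested on simulated data. The deposited signal was used only for ranking levels. Depth was 26657792 to 37168232 (median 30701023), and the detection limit was taken as 3 reads per library, which covers counting error only. Level per length used GENCODE M21 exons.

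Members and lists were chosen with earlier results of these data known. Genes were named by a rule, 67 in all: members of a list of 30 channel genes known in β cells, in each comparison up to 10 rises and 10 falls among called members with at least 1 CPM in a group and no overlap between libraries, members at 1 CPM called in an interaction, and the 10 with the highest level per length. Others (Kcna1, Kcna6, Kcng2, Kcng3, Kcnj10, Kcnmb4os2, Kcnq1ot1, Kcnrg, Scn4a, Scn4b, Scn7a and Scn10a) were chosen after their values were seen. Libraries carry numbers 1 to 4 from labels P65 to P68, whose meaning is not explained. Deviations of same-numbered libraries from their group means correlated above 0.1 in every pair of 5 comparisons (for example 0.413 to 0.626 in Scr+Cy vs Scr), but not in OE vs Scr (−0.129 to 0.295) or OE+Cy vs Scr+Cy (0.001 to 0.165), and a model with this number as a block was an alternative. The others were DESeq2 1.42.0, its size factors in edgeR, removal of low counts (14535 genes kept), fits of only the groups compared, an unadjusted p, no fold limit, each library left out in turn, and, chosen after seeing the data, all replicate 1 libraries left out together. No gene set was tested. The microRNA itself was not analysed here, and some members, although counted in the totals, are not reported here.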

Additional observations from a re-analysis of the deposited data

Results flagged for a closer look

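Of 304 sets of 4 libraries, each 1 gene in 1 group, 18 held a library far from the other 3. This share is close to the 1 in 20 or so that chance alone gives. Of the 18, 14 were in replicate 1 of a group. The libraries with high Schwann cell markers held Kcna1 at 11.7 CPM in Scr, 17.5 CPM in ZIP and 37.0 CPM in Scr+Cy, Scn7a at 12.9, 18.1 and 28.9 CPM in the same order, and Scn10a at 4.28 CPM in Scr+Cy. Kcna2 was at 13.5 CPM in ZIP, 18.3 CPM in Scr+Cy and 6.18 CPM in ZIP+Cy, each in replicate 1 and each above the other libraries of its group. In ZIP+Cy the summed Schwann cell markers spanned 65.9 to 75.01 CPM. Other replicate 1 libraries apart from their group were OE for Cacnb1 at 25.1 CPM, Scr+Cy for Cacnb4 at 2.37 CPM and Kcnq3 at 2.62 CPM, and Scr for Kcnj6 at 17.7 CPM. Of other replicates, OE replicate 4 was apart for Cacng2 at 3.37 CPM, Scr+Cy replicate 2 for Kcnf1 at 7.85 CPM, ZIP+Cy replicate 4 for Kcnj12 at 36.7 CPM and Scr+Cy replicate 3 for Kcnma1 at 31.9 CPM.

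The cytokine response of the OE line differed from that of the Scr line for the following 18 members at 1 CPM by edgeR's test of the interaction. On the log2 scale it was higher in OE by 1.35 for Cacna1g, 1.29 for Kcnc1, 1.05 for Kcnc2, 0.89 for Cacna1b, 0.79 for Kcnt2, 0.44 for Scn8a, 0.33 for Cacng7, 0.30 for Cacna1c and 0.29 for Scn3b. The difference was −1.38 for Kcnk9, −1.26 for Kcnk10, −1.16 for Kcnf1, −1.15 for Kcnk16, −0.97 for Kcnh1, −0.73 for Scn9a, −0.71 for Kcnh5, −0.67 for Cacna1h and −0.43 for Kcnh6.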

How the results depend on the processing

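The number of channel genes called stayed within 1.5 times of the reported count, apart from the following. In Scr+Cy vs Scr, 26 members passed the fold limit with an unadjusted p under 0.05 and 21 passed the adjusted p without a fold limit, against 13. In ZIP+Cy vs ZIP, 32 passed without a fold limit, against 14. For the ZIP interaction, 13 passed the unadjusted p, 1 was called by DESeq2 and 2 with the replicate block, against 0, and for the OE interaction 40 passed the unadjusted p, against 21. The looser threshold explains these counts by construction. The cause of the DESeq2 and block counts was not tested. With 1 library left out in turn, the counts were 31 to 33 in ZIP vs Scr, 57 to 63 in OE vs Scr, 11 to 15 in Scr+Cy vs Scr, 12 to 15 in ZIP+Cy vs ZIP, 32 to 36 in OE+Cy vs OE, 28 to 35 in ZIP+Cy vs Scr+Cy and 49 to 54 in OE+Cy vs Scr+Cy, and 0 to 1 and 17 to 23 for the ZIP and OE interactions. With the replicate number as a block, 36, 66, 17, 19, 37, 40 and 55 members were called in these 7 comparisons and 29 in the OE interaction. Results of single genes were followed for 190 tests, 134 chosen by the naming rule and 56 of the others printed above. Of the 172 that were called, 0 changed sign and 21 lost the call in at least 1 setting: the OE interactions of Cacna1c, Kcnc1, Scn3b and Kcnt2, Scn9a in ZIP vs Scr, Scr+Cy vs Scr and ZIP+Cy vs Scr+Cy, Cacna2d2 in ZIP vs Scr and OE+Cy vs OE, Cacna1g, Kcnma1 and Scn3a in ZIP vs Scr, Kcnj6 in OE vs Scr, Kcnc2 and Kcnh5 in Scr+Cy vs Scr, Cacnb4 in ZIP+Cy vs ZIP, Cacna1a, Cacng5 and Kcna1 in ZIP+Cy vs Scr+Cy, and Kcna1 and Scn7a in OE+Cy vs Scr+Cy. Of the 18 that were not called, 5 were called in at least 1 setting: Kcnk1 in ZIP vs Scr and Kcnq3 and Scn2a in OE vs Scr without replicate 1 libraries, Kcnab2 in OE+Cy vs OE with 1 library left out, and Kcnk9 in ZIP+Cy vs ZIP with DESeq2 (adjusted p = 0.00625), a fit of only the groups compared (adjusted p = 0.0248) or the replicate block (adjusted p = 0.0499). Near 0, Kcnh1 in OE+Cy vs Scr+Cy changed sign without all replicate 1 libraries (−0.061) and, with 1 library left out, spanned −0.045 to 0.084, and Kcnk16 there spanned −0.085 to 0.27. Among these 190 tests the replicate block changed no call but that of Kcnk9. The 10 genes with the highest level per length were the same 10 by the deposited normalized values. Depth limits members under about 1 CPM, where a library holds few reads.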

Other observations

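Beyond the pore and accessory genes above, 64 other genes of excitability and calcium handling were examined, of which 61 were listed. In ZIP vs Scr 8 were called higher and 6 lower (23.0% of them, against 12.2% of all genes), and in OE vs Scr 10 higher and 13 lower (37.7%, against 23.8%). With cytokines, 3 were called higher and 5 lower in Scr (13.1%, against 7.57% of all genes), 5 and 7 in ZIP (19.7%, against 9.7%) and 7 and 10 in OE (27.9%, against 19.2%). Of the calcium release channels of the endoplasmic reticulum, Ryr2, a ryanodine receptor, averaged 2.66 CPM in Scr, 11.6 CPM in ZIP and 30.97 CPM in OE, a log2 fold change of 2.12 ± 0.30 (adjusted p = 6.72e-06) in ZIP and 3.54 ± 0.30 (adjusted p = 5.37e-10) in OE. Itpr3, an inositol trisphosphate receptor, averaged 11.3, 2.51 and 143 CPM in Scr, ZIP and OE, so that it fell by 2.19 ± 0.26 in ZIP (adjusted p = 3.57e-07) and rose by 3.65 ± 0.21 in OE (adjusted p = 4.51e-13). Slc8a1, a sodium-calcium exchanger, was higher in both lines, by 0.66 ± 0.10 (adjusted p = 2.25e-05) and 1.57 ± 0.10 (adjusted p = 5.88e-12).

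Rrad and Gem, small GTPases known to hold back voltage-gated calcium channels, were called higher with cytokines in all 3 lines. The mean level of Gem was 29.4 CPM without and 52.6 CPM with cytokines in the Scr line, and its log2 fold changes were 0.84 ± 0.13 in Scr, 1.57 ± 0.13 in ZIP and 1.07 ± 0.13 in OE (adjusted p = 2.32e-05, 1.16e-09 and 3.23e-07). Mean Rrad was below 1 CPM in both Scr and Scr+Cy (0.191 and 0.877 CPM). It rose by 2.18 ± 0.33, 2.92 ± 0.35 and 1.10 ± 0.26 in the same order of lines (adjusted p = 2.89e-05, 7.32e-07 and 0.00108). Rem2, a further GTPase of this kind, went the other way and was not called with cytokines in any line. Its means without and with cytokines were 1.75 and 1.14 CPM in Scr, 3.17 and 2.55 CPM in ZIP, and 5.25 and 3.39 CPM in OE. Dpp6, a partner of Kcnd channels, was called lower with cytokines in each line, with log2 fold changes of −1.10 ± 0.13 in Scr and −1.07 ± 0.13 in OE (adjusted p = 4.18e-07 and 2.23e-07, and 9.60e-07 in ZIP). No explanation of these values was tested.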
